A study of Mus musculus with 16 samples.

Results

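The pyruvate dehydrogenase step was followed through the messenger RNA of 10 genes: the 4 pyruvate dehydrogenase kinases (Pdk1, Pdk2, Pdk3 and Pdk4), the phosphatases Pdp1 and Pdp2, the alpha and beta subunits of the enzyme's first component (Pdha1 and Pdhb) and the mitochondrial pyruvate carrier subunits (Mpc1 and Mpc2). They were chosen by name through the array's platform annotation. Of the 10 genes, 9 were measured, each by 1 probe set, among 19505 genes named on the array. No probe set carried the name Mpc2 in the annotation used here, so that gene has no value.

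The samples were hearts of male wild-type C57BL/6 mice of 10 weeks. In 3 groups the left anterior descending coronary artery was tied for 30 min and then released, and the heart was taken after 6, 24 or 72 h of reperfusion. The control group had a sham operation, and the labels do not say how long after it the hearts were taken. Each group had 4 hearts with 1 array each, all groups shared strain, sex and age, and the part of the heart that was taken is not stated. The same 4 sham arrays served every comparison with sham, so those comparisons are not independent of one another. The comparisons ask how the step changed from early to late reperfusion.

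Pyruvate dehydrogenase is a large mitochondrial complex that turns pyruvate, made from glucose or lactate, into acetyl-CoA. The kinases phosphorylate serines of the alpha subunit and switch the complex off, and the phosphatases remove the phosphate and switch it on again, so their balance sets how far the heart burns carbohydrate in place of fatty acids. The pyruvate carrier, a pair of small membrane proteins, brings pyruvate through the inner mitochondrial membrane.

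Each value is a log2 signal as the authors deposited it, so a difference of 1 is a doubling on that scale. The values ran from 1.83 to 19.82, with array medians of 5.84 to 5.95, and the number of arrays limits the precision. A signal of 6.76, the 75th percentile of 5222 negative control probe sets, was taken as the background level, and signals of different genes were not set against each other, since probe sets differ in brightness. Changes were tested with limma over all 16 arrays and called at a Benjamini-Hochberg adjusted p under 0.05 over all 19505 genes. Errors beside a mean are SD over 4 hearts, and errors beside a change are the standard errors of the fit. The signals of the spike-in control RNAs were themselves not level across groups. Against sham, the hybridization spike-ins moved by 0.22, -0.31 and -0.50 at 6, 24 and 72 h, and the poly-A spike-ins by 0.34, 0.10 and -0.19. Centring the arrays on them shifts every gene by these amounts with the sign turned. A call that ends under such a centring is given beside the result. Each centring rests on 4 probe sets. The mean of the poly-A ones ran from 6.51 to 7.30 over the arrays, around the background level of 6.76, so it is an uncertain reference. For the lists of other genes, the larger moves of the counts are given.

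The hearts carried a full set of muscle markers and a changing set of other cells. All 10 cardiomyocyte markers lay above background in every group, with a summed log2 level of 21.58 to 21.61 in sham, 21.53 to 21.62 at 6 h, 21.21 to 21.50 at 24 h and 21.35 to 21.53 at 72 h. Of these markers, 0 passed limma's test as lower at 6 h (0 also at an unadjusted p under 0.05), 4 at 24 h (Myh6, Ryr2, Pln and Myl3) and 3 at 72 h. Neutrophil markers passed as higher in 6 of 6 at 6 h, 6 at 24 h and 2 at 72 h, and monocyte and macrophage markers in 3, 7 and 7 of 7. Fibroblast markers passed as lower in 2 of 6 at 6 h and as higher in 4 at 24 h and 6 at 72 h. Of all genes, 7.92% passed as higher and 12.3% as lower at 6 h, 13.8% and 12.3% at 24 h, and 11.5% and 10.3% at 72 h. At 24 h, replicate 16 had a mean of the atrial markers 3.92 above sham, where replicates 14, 15 and 17 had 0.21 to 0.33. At 72 h this mean was 1.16 and 1.19 above sham in replicates 21 and 23, and 0.49 and 0.38 in replicates 20 and 22. The 24 h replicate 17 stood apart from the other 24 h arrays on the first principal component, at 10.8 against 35.1 to 40.7. In whole tissue, fewer cells of a type and less RNA per cell cannot be told apart, and the part of the changing cell makeup in the results was not tested.

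Pdk4, a kinase known to rise with fasting, fatty acids and glucocorticoids, had the widest change of the 9 genes, and it moved in both directions. It rose 16.1-fold at 6 h, lay 2.34-fold below sham at 24 h, and at 72 h did not differ from sham beyond its error. The phosphatase Pdp2 fell to below background at 6 h, at least 2.16-fold (4.65-fold as measured), and was still lower at 24 and 72 h. Pdk2, the most widely expressed kinase, was called lower at 24 h alone of the comparisons with sham. These 3 genes had the widest range of group means, and the stretch just upstream of each start is shown so that their sequence can be read beside the values. The sequences are from RefSeq on GRCm38.p6 and run 5′ to 3′ from 250 bases before the start to the base before it. Capitals mark matches, on either strand, to the motifs described after the values.
Pdk4, chr6:5496279-5496528, minus strand: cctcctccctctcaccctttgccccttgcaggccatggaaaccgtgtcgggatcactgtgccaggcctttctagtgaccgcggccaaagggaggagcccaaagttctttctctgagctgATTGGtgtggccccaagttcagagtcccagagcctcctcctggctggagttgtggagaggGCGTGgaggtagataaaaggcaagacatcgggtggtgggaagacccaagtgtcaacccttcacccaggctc
Pdp2, chr8:104591222-104591471, plus strand: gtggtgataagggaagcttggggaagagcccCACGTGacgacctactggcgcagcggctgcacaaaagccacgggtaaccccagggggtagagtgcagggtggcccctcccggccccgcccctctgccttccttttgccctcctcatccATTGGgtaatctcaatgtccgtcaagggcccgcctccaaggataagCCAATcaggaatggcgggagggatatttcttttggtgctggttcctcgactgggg
Pdk2, chr11:95041372-95041621, minus strand: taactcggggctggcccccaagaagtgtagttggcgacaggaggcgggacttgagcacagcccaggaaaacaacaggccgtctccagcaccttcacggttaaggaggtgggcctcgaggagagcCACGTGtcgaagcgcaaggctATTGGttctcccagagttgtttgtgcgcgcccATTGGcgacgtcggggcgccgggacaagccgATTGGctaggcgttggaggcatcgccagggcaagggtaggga

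On the 4 sham arrays the Pdk4 signal was 13.26, 14.25, 13.09 and 13.09. At 6 h it was 17.53, 17.17, 17.44 and 17.58, at 24 h 12.47, 12.19, 12.20 and 11.93, and at 72 h 14.32, 12.70, 13.78 and 13.51. Every 6 h heart lay above every heart of the other groups, every 24 h heart lay below every sham heart, and the 72 h hearts overlapped the sham hearts, with 1 above their highest and 1 below their lowest. The group means were 13.42 ± 0.56 in sham, 17.43 ± 0.18 at 6 h, 12.19 ± 0.22 at 24 h and 13.58 ± 0.67 at 72 h (SD, n = 4). The change against sham was 4.01 ± 0.28 at 6 h (limma adjusted p = 4.92e-09) and -1.23 ± 0.28 at 24 h (limma adjusted p = 0.00261). At 72 h it was 0.15, with a 95% interval of -0.43 to 0.74 and a limma adjusted p of 0.746. From 6 to 24 h Pdk4 fell by 5.24 on the log2 scale, a signal 37.7-fold lower (limma adjusted p = 2.35e-10), and from 24 to 72 h it rose by 1.38 (limma adjusted p = 0.00218). Ordered by level, the groups were 6 h, 72 h, sham and 24 h, and 72 h and sham were the neighbours that did not differ beyond their error. Sham replicate 3, at 14.25, stood above the other sham arrays. Without it the change was 4.28 at 6 h and -0.95 at 24 h, and both kept their call.

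**Figure D1:**
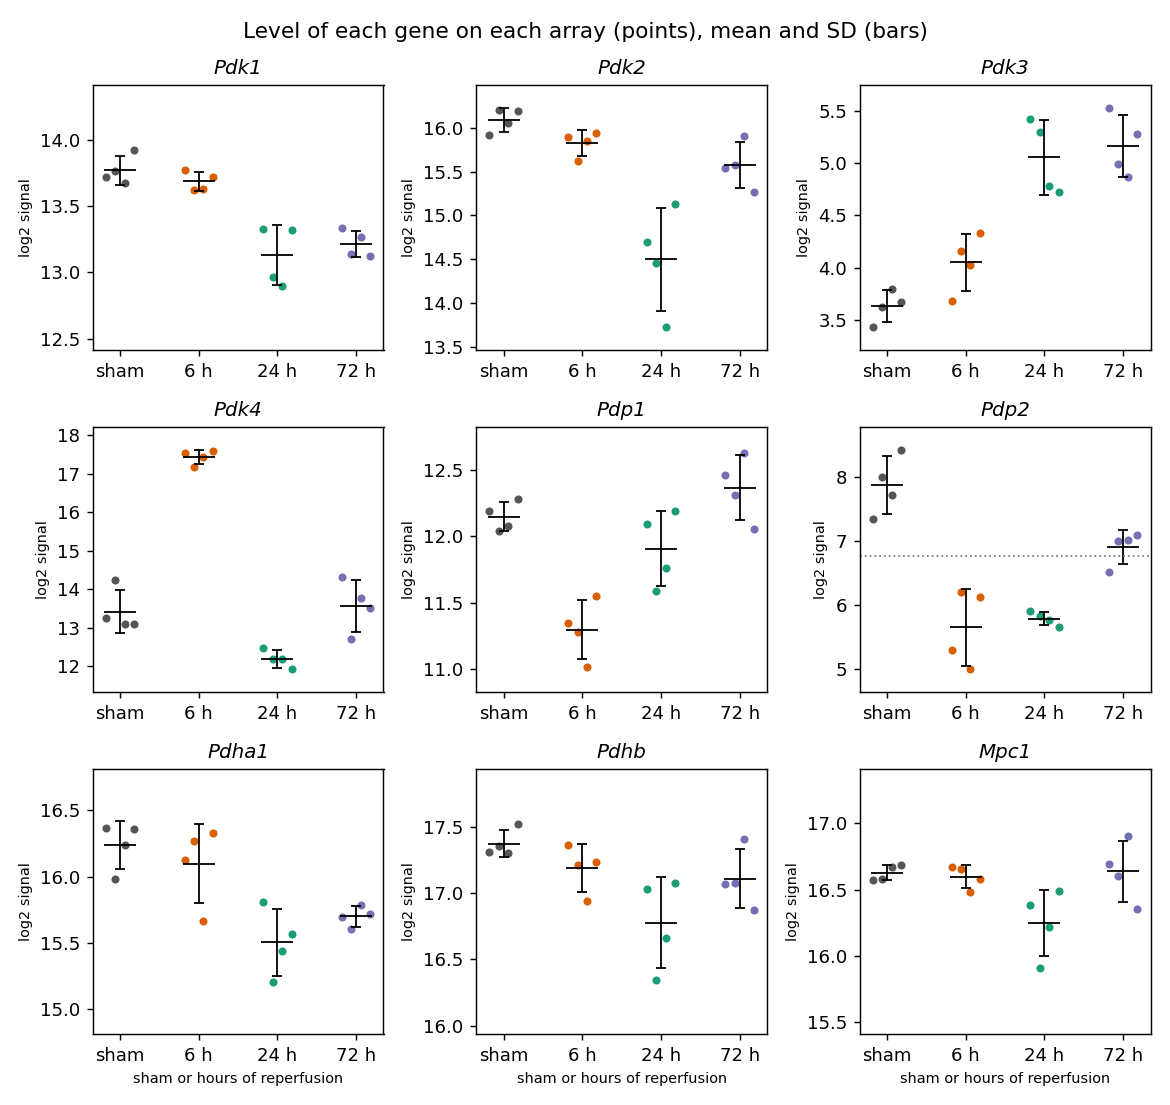
Log2 signal (y axis, a separate scale for each gene) of the 9 measured genes by group (x axis), with a point per heart and bars at the mean ± SD of 4 hearts; the dotted line in the Pdp2 panel is the background level of 6.76. Pdk4 is at 17.17 to 17.58 on the 6 h arrays and at or below 14.32 on all others, while Pdp2 is below the line on all 6 h and 24 h arrays.

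Pdk2 is a kinase expressed in many tissues, the heart included. Its signal was 15.92, 16.20, 16.05 and 16.19 in sham and 15.90, 15.62, 15.85 and 15.94 at 6 h. At 24 h it was 14.70, 14.46, 13.73 and 15.13, and at 72 h 15.54, 15.57, 15.91 and 15.26. The 24 h hearts were all below those of every other group and spread widest, with replicate 16 lowest and replicate 17 highest. Pdk2 fell by 1.59 ± 0.22 at 24 h, to a signal 3.01-fold lower than sham (limma adjusted p = 2.16e-05), and rose by 1.07 from 24 to 72 h (limma adjusted p = 0.00227). Without replicate 16, which carried the atrial markers, the 24 h change was -1.33, and without replicate 17 it was -1.80, called both times. The change was -0.27 at 6 h (95% interval -0.72 to 0.19, limma adjusted p = 0.479) and -0.52 at 72 h (interval -0.98 to -0.06, limma adjusted p = 0.0985). The 72 h value missed the threshold although the 72 h and sham hearts did not overlap, and it passed without 24 h replicate 16 (limma adjusted p = 0.0306), which changes only the estimate of the spread. It passed too with median centring (limma adjusted p = 0.038), array weights (0.0437) and a 2-group fit (0.0271). With hybridization spike-in centring the 72 h change was -0.02 (limma adjusted p = 0.944) and with poly-A centring -0.33 (limma adjusted p = 0.459).

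Pdk1, a kinase gene known as a target of the hypoxia-inducible factor, was called lower at both later times. Its signal was 13.72, 13.77, 13.67 and 13.93 in sham, 13.77, 13.62, 13.63 and 13.72 at 6 h, 13.32, 12.97, 12.90 and 13.32 at 24 h, and 13.33, 13.14, 13.26 and 13.13 at 72 h. All 24 h and 72 h hearts lay below all sham and 6 h hearts. The change was -0.64 ± 0.13 at 24 h (limma adjusted p = 0.00119) and -0.56 ± 0.13 at 72 h (limma adjusted p = 0.00493). At 6 h it was -0.08, with a 95% interval of -0.36 to 0.20. With hybridization spike-in centring the change was -0.33 at 24 h (limma adjusted p = 0.171) and -0.06 at 72 h (limma adjusted p = 0.791), and with poly-A centring -0.37 at 72 h (limma adjusted p = 0.241), so that these calls ended. From 6 to 24 h Pdk1 changed by -0.56 (limma adjusted p = 0.00365), which was -0.03 and -0.32 and not called under the 2 centrings. From 6 to 72 h it changed by -0.47 (limma adjusted p = 0.0109), and this difference turned to 0.24 and 0.053 under the hybridization and poly-A centring, not called in either.

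Pdk3, a kinase found mostly in testis and some other tissues, rose at 24 and 72 h but from a dim start. Its signal was 3.43, 3.62, 3.80 and 3.68 in sham, 3.69, 4.16, 4.02 and 4.34 at 6 h, 5.42, 5.29, 4.78 and 4.72 at 24 h, and 5.53, 4.99, 4.87 and 5.28 at 72 h. The 24 h and 72 h hearts overlapped each other and lay above every sham and 6 h heart, yet all 16 arrays were below the background level. The change was 1.42 ± 0.19 at 24 h (limma adjusted p = 1.71e-05) and 1.53 ± 0.19 at 72 h (limma adjusted p = 7.9e-06), and 0.42 at 6 h (95% interval 0.02 to 0.82, limma adjusted p = 0.144). Since both sides are below background, no fold is given. The summed log2 level of the 7 macrophage markers was also higher at those times, at 12.19 to 12.55 in sham, 12.55 to 12.94 at 6 h, 14.31 to 16.16 at 24 h and 15.87 to 16.70 at 72 h. In 24 h replicates 14, 15, 16 and 17, the mean log2 level of these markers was 3.15, 3.82, 4.26 and 2.33 above sham. Pdk3 was 5.42, 5.29, 4.78 and 4.72 there, so replicate 17 was lowest on both and the highest heart differed. Fibroblast markers were called higher in 4 of 6 at 24 h and in 6 at 72 h. The part of these cells in the Pdk3 signal was not tested.

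Among the phosphatases, Pdp2 fell early and at 72 h lay between its 24 h and sham levels. Pdp2 does not need calcium and is known to respond to insulin. Its signal was 7.35, 8.00, 7.72 and 8.43 in sham, 5.30, 6.20, 5.0 and 6.13 at 6 h, 5.90, 5.83, 5.77 and 5.66 at 24 h, and 6.51, 7.0, 7.02 and 7.09 at 72 h. Every heart after reperfusion lay below every sham heart, and every 72 h heart lay above every 6 and 24 h heart. All 6 h and 24 h arrays and 1 of the 72 h arrays were below background, so at 6 and 24 h only a bound can be given: the sham mean against the background level was at least 2.16-fold higher at both times. As measured, Pdp2 fell by 2.22 ± 0.25 at 6 h (limma adjusted p = 2.46e-06), by 2.09 ± 0.25 at 24 h (limma adjusted p = 5.08e-06), and by 0.97 ± 0.25 at 72 h (limma adjusted p = 0.00856). From 24 to 72 h it rose by 1.12 as measured (limma adjusted p = 0.00485), or by at least 0.14 against the background level, and 24 h did not differ from 6 h beyond error, at 0.13 (limma adjusted p = 0.733), though at 0.66 with hybridization spike-in centring (limma adjusted p = 0.0383), both groups being below background. With hybridization spike-in centring the 72 h change was -0.47 and no longer called (limma adjusted p = 0.149), while the 6 h change was -2.44 and the 24 h change -1.78.

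Pdp1, the calcium-activated phosphatase that prevails in heart and skeletal muscle, fell at 6 h and rose again by 24 and 72 h. Its signal was 12.19, 12.04, 12.08 and 12.28 in sham, 11.34, 11.28, 11.02 and 11.55 at 6 h, 12.09, 11.59, 11.76 and 12.19 at 24 h, and 12.46, 12.31, 12.63 and 12.05 at 72 h. The 6 h hearts lay below all others, and the 24 h and 72 h hearts both overlapped the sham hearts. Pdp1 fell by 0.85 ± 0.17 at 6 h, 1.80-fold (limma adjusted p = 0.000864), and rose from 6 to 24 h by 0.61 (limma adjusted p = 0.00903). The latter missed the threshold without 24 h replicates 16 and 17 together, at 0.54 (limma adjusted p = 0.0543). At 24 h it was -0.24 against sham (95% interval -0.59 to 0.11) and at 72 h 0.22 (interval -0.13 to 0.56), the latter 0.71 and called with hybridization spike-in centring (limma adjusted p = 0.00395). From 6 to 72 h it rose by 1.07 (limma adjusted p = 5.59e-05). The kinase Pdk4 and both phosphatases were thus the 3 members called at 6 h, Pdk4 upward and the phosphatases downward.

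A difference between 2 probe sets of the same array is free of that array's scaling. The difference Pdk4 minus Pdp2 and the difference Pdk4 minus Pdk2 were therefore compared with sham, by exact two-sided permutation of 4 against 4 hearts. These 3 genes had the widest range of group means in the same data, so the tests are not independent evidence of a change. Pdp1, above background in every group, was not paired with Pdk4. At 24 h Pdk4 changed by -1.23 against sham and Pdp1 by -0.24. The smallest p this design can give is 0.0286, which becomes 0.0571 after adjustment over the 6 tests when 3 tests reach it, as they did. Since Pdp2 was below background on all 6 and 24 h arrays, its differences there are bounds too. As measured, Pdk4 minus Pdp2 was 6.23 higher at 6 h, from a range of 4.66 to 6.25 in sham to one of 10.96 to 12.44 (exact permutation p = 0.0286, adjusted 0.0571). At 24 h, when both genes were below sham, it was 0.86 higher as measured, with a range of 6.27 to 6.57 just above that of sham (exact permutation p = 0.0286, adjusted 0.0571). With Pdp2 raised to the background level, a setting chosen after seeing the data, the difference was 5.12 higher at 6 h (range 10.41 to 10.82, exact permutation p = 0.0286, adjusted 0.0857) and -0.12 at 24 h (exact permutation p = 0.83), so that at 24 h no direction is given. At 72 h it was 1.12 higher with overlapping groups (exact permutation p = 0.114, adjusted 0.171). Pdk4 minus Pdk2 was 4.27 higher at 6 h (exact permutation p = 0.0286, adjusted 0.0571), 0.36 higher at 24 h (exact permutation p = 0.429) and 0.67 higher at 72 h (exact permutation p = 0.200). After adjustment 0 of the 6 differences passed 0.05, and the groups did not overlap in the 3 at the smallest p.

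For the enzyme and the carrier, 0 of the 3 measured genes were called at 6 h by limma (0 also at an unadjusted p under 0.05), and Pdha1 and Pdhb were called lower at 24 h. Pdha1, the alpha subunit that carries the phosphorylated serines, had signals of 16.37, 15.98, 16.24 and 16.36 in sham and 16.13, 16.27, 15.67 and 16.33 at 6 h. At 24 h they were 15.81, 15.20, 15.44 and 15.57, and at 72 h 15.70, 15.60, 15.79 and 15.72. The 24 h and 72 h hearts lay below every sham heart, and the 6 h hearts overlapped them. Pdha1 fell by 0.73 ± 0.16 at 24 h (limma adjusted p = 0.0021) and by 0.54 ± 0.16 at 72 h (limma adjusted p = 0.0229), and was -0.14 at 6 h (95% interval -0.48 to 0.20). The 72 h call was lost on leaving out sham replicate 2 (limma adjusted p = 0.0655), sham replicate 5 (0.0581), 72 h replicate 20 (0.0502) or 72 h replicate 21 (0.0621), and under quantile normalization, at -0.44 (0.0688). With hybridization spike-in centring it was -0.43 at 24 h (limma adjusted p = 0.0864) and -0.04 at 72 h (limma adjusted p = 0.859), and with poly-A centring -0.35 at 72 h (limma adjusted p = 0.322), not called in any of these.

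Pdhb, the beta subunit that pairs with Pdha1, was called lower at 24 h. Its signal was 17.31, 17.36, 17.30 and 17.52 in sham, 17.36, 17.22, 16.94 and 17.23 at 6 h, 17.03, 16.35, 16.66 and 17.07 at 24 h, and 17.07, 17.08, 17.41 and 16.88 at 72 h. All 24 h hearts lay below all sham hearts, and the 6 h and 72 h hearts overlapped sham. Pdhb fell by 0.60 ± 0.17 at 24 h (limma adjusted p = 0.012), and missed the threshold without 24 h replicate 15, the lowest array, at -0.45 (limma adjusted p = 0.0547). With hybridization spike-in centring it was -0.29 (limma adjusted p = 0.251). It was -0.19 at 6 h (95% interval -0.54 to 0.17) and -0.27 at 72 h (limma adjusted p = 0.288). Of the cardiomyocyte markers, 4 of 10 passed as lower at 24 h too, with a median change of -0.32 over the 10, and their part in the fall of the subunits was not tested.

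Mpc1 was the only measured member whose groups did not differ in the F test over the 4 groups (limma adjusted p = 0.0896). Its signal ran from 15.91 on a 24 h array to 16.91 on a 72 h array. The lowest group was 24 h, at 16.25 ± 0.25 against 16.63 ± 0.06 in sham (SD, n = 4), and those groups did not overlap. The change of -0.38 ± 0.15 missed the threshold (95% interval -0.69 to -0.07, limma adjusted p = 0.0654) and passed without 24 h replicate 17, at -0.46 (limma adjusted p = 0.0316). It passed too with median centring (limma adjusted p = 0.0309), a filter at the median signal (0.0361) and a trended robust prior (0.0203). With hybridization spike-in centring the 24 h change was -0.07 (limma adjusted p = 0.787). In the main fit the change was -0.03 at 6 h (interval -0.34 to 0.28) and 0.01 at 72 h (limma adjusted p = 0.969). The latter was 0.51 and called with hybridization spike-in centring (limma adjusted p = 0.018).

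**Figure D2:**
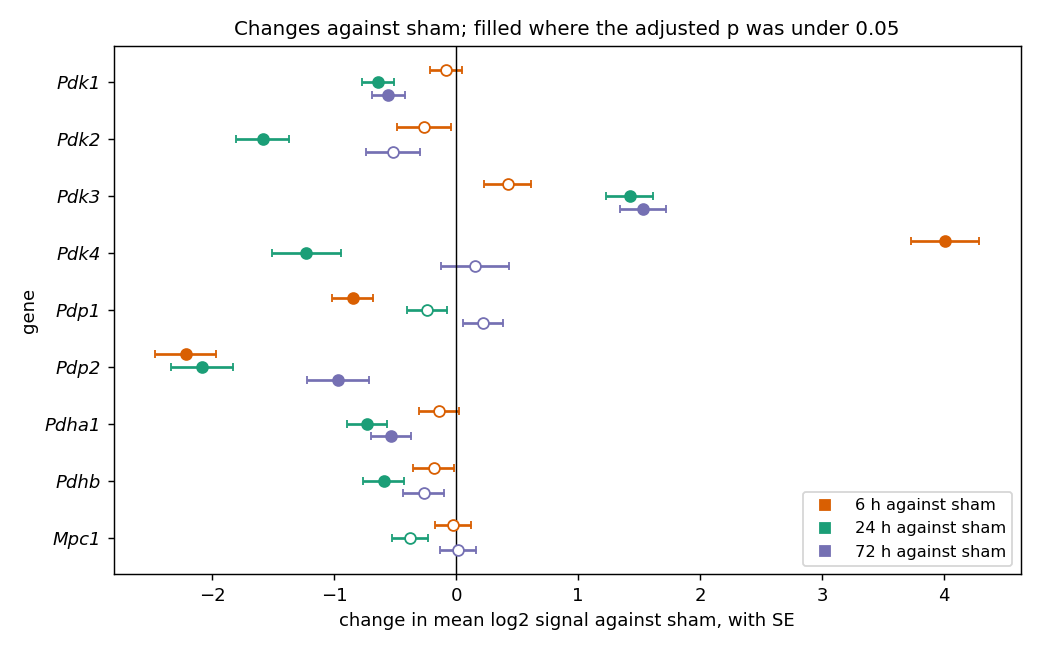
Change of each gene's mean log2 signal against sham (x axis) at 6, 24 and 72 h of reperfusion, with bars of 1 standard error from the fit over 4 hearts a group; filled points had an adjusted p under 0.05. At 6 h the called points are Pdk4, Pdp1 and Pdp2, and at 24 h 6 genes are called to the left of 0 and Pdk3 to the right, below its background level.

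Counted over the 9 measured genes, 1 was called higher and 2 lower at 6 h, where 7.92% and 12.3% of all genes were called in those directions. At 24 h 1 was higher and 6 lower, against 13.8% and 12.3% of all genes, and at 72 h 1 was higher and 3 lower, against 11.5% and 10.3%. The higher gene at both of these times was Pdk3, which was below background on all 16 arrays. The median change of the 9 was -0.14, -0.64 and -0.27 at the 3 times, beside -0.04, -0.07 and -0.09 over all genes. Groups did not overlap with sham for 3 genes at 6 h, 8 at 24 h and 5 at 72 h, while 22.8%, 25.9% and 27.1% of all genes had that property. Under hybridization spike-in centring the count of lower members was 3 at 24 h and 0 at 72 h, and under poly-A centring 1 at 72 h. At 24 h Pdk2, Pdk4 and Pdp2 were the 3 that kept the call as lower under the hybridization centring, at -1.28, -0.92 and -1.78. In the F test 8 of 9 passed, against 44.5% of all genes.

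Between the reperfusion times, 2 members were higher and 4 lower at 24 h than at 6 h (17.3% and 10.9% of all genes). Pdp1 and Pdk3 were the higher ones, and Pdk1, Pdk2, Pdk4 and Pdha1 the lower ones. Under either spike-in centring 2 were lower, Pdk2 and Pdk4. From 24 to 72 h 3 rose and 0 fell by the limma test (6.85% and 6.07% of all genes), or 5 and 0 at an unadjusted p under 0.05. The 3 were Pdk2, Pdk4 and Pdp2. Without 24 h replicate 17 this count was 5, likewise without 72 h replicate 23 and under either spike-in centring, with Pdp1 and Mpc1 added. Between 6 and 72 h 3 were higher and 2 lower (17.5% and 13.1% of all genes), and the fall of Pdk4 by 3.85, or 14.5-fold, was the widest of these changes (limma adjusted p = 5.45e-09). The groups did not overlap for 5 members between 6 and 24 h (24.9% of all genes), for 3 between 24 and 72 h (15.6%) and for 5 between 6 and 72 h (30.5%).

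In the 3 upstream stretches shown above, 4 of the 7 motifs searched had no match: the forkhead motif TGTTTAC, the nuclear receptor half-site AAGGTCA, the glucocorticoid half-site TGTTCT and the TATA box TATAAA. All were searched on both strands of the 9 members' stretches that RefSeq's table held, and those 4 matched in 0 of the 9. Over the 32851 promoters of the table they were found in 3.17%, 4.08%, 16.1% and 12.4%. The Pdp2 and Pdk2 stretches each held the E-box CACGTG, at 219 and 126 bases before the start, a match found in 6.02% of promoters. The hypoxia response core is ACGTG or GCGTG, and its ACGTG form lies within the E-box. The core was found in 38.6% of promoters, and in Pdk4 it matched as GCGTG at 71 bases before the start, outside any E-box. The CCAAT box (33.8% of promoters) matched at 131 in Pdk4, at 101 and 55 in Pdp2 and at 105, 73 and 42 in Pdk2. A match describes the letters only, and the absence of one covers only these 250 bases. Pdp1 had no entry.

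The other genes of the pathway were described by 7 lists, of which 86 of 93 genes were measured. Their counts are to be read beside those of all genes: 7.92% higher and 12.3% lower at 6 h, 13.8% and 12.3% at 24 h, and 11.5% and 10.3% at 72 h. The median change of all genes was -0.04, -0.07 and -0.09 at these times. In the list of the complex's other subunits and its lipoylation, limma called 1 of 10 higher and 0 lower at 6 h (1 lower at an unadjusted p under 0.05), 1 higher and 5 lower at 24 h, and 0 higher (0 unadjusted) and 4 lower at 72 h, with median changes of -0.18, -0.47 and -0.46. Dlat, the acetyltransferase core of the complex, changed by -0.82 ± 0.18 at 24 h (limma adjusted p = 0.00147), Pdhx, which anchors the third component, by -0.90 ± 0.21 (limma adjusted p = 0.00302), and Pdpr, the regulatory subunit of the phosphatase, by -1.01 ± 0.17 (limma adjusted p = 0.000216). Glrx5, needed for the iron-sulphur clusters of lipoate synthesis, was -0.75 ± 0.16 (limma adjusted p = 0.00134). Lipt1, which transfers lipoate to such complexes, was the called riser, at 1.04 ± 0.18 at 6 h (limma adjusted p = 0.000343). Under hybridization spike-in centring the lower counts were 3, 2 and 0, and under poly-A centring 4 at 6 h and 0 at 72 h, with 0 higher at 24 h. Under median centring 7 were lower at 72 h. At 24 h under hybridization centring Dlat was -0.51 (limma adjusted p = 0.0673) and Glrx5 -0.44 (limma adjusted p = 0.0944), neither called, and Pdhx was -0.59 (limma adjusted p = 0.0369).

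The related complexes for 2-oxoglutarate, branched-chain and other 2-oxo acids were described by 8 genes. Of these, 2 were called lower at 6 h, 8 at 24 h and 7 at 72 h, and 0 higher by the limma test (0 also at an unadjusted p under 0.05), with medians of -0.32, -0.98 and -0.72. At 24 h Ppm1k, the phosphatase that activates the branched-chain complex, was -1.88 ± 0.21 (limma adjusted p = 2.34e-06), Bckdhb, a subunit of that complex, -1.55 ± 0.22 (limma adjusted p = 2.44e-05), and its partner Bckdha -1.09 ± 0.18 (limma adjusted p = 0.000167). Ogdh, of the citric acid cycle, was -1.20 ± 0.14 (limma adjusted p = 4.11e-06). Dhtkd1, of lysine breakdown, was -0.92 at 6 h (limma adjusted p = 0.000385) from a sham mean of 4.58, below background. The spike-in centrings left 2 and 3 lower at 72 h and gave 5 and 6 at 6 h, and a filter at the 25th percentile gave 1 at 6 h.

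Among genes for the other fates of pyruvate, limma called 1 of 12 higher and 0 lower at 6 h (2 lower at an unadjusted p under 0.05), 2 higher and 6 lower at 24 h, and 2 higher and 3 lower at 72 h, with medians of 0.05, -0.51 and -0.15. Slc16a3, a lactate exporter, rose by 1.64 ± 0.36 at 6 h (limma adjusted p = 0.00253) and by 2.81 ± 0.36 at 24 h (limma adjusted p = 1.04e-05), from a sham mean of 6.34, below background, so that it was at least 2.31-fold and 5.23-fold higher. The malic enzyme Me2 also rose at 24 h, by 1.06 ± 0.19 as measured (limma adjusted p = 0.000268), from below background in sham, at 5.92, so that it was at least 1.16-fold higher. Me3, a related malic enzyme, was -1.21 ± 0.15 (limma adjusted p = 7.19e-06) and Gpt2, which turns pyruvate to alanine, -1.22 ± 0.24 (limma adjusted p = 0.000759). Slc16a1, the main lactate and pyruvate transporter, was -1.07 ± 0.16 at 72 h (limma adjusted p = 5.68e-05). Under hybridization spike-in centring 5 were higher and 1 lower at 72 h, with Slc16a1 at -0.57 (limma adjusted p = 0.0232). At 6 h the lower count was 3 under that centring and 4 under the poly-A one, and 1 without sham replicate 3, without 72 h replicate 23, with a filter on dim genes or with a trended robust prior.

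Glucose uptake and glycolysis were split. Of 15 genes limma called 3 higher and 5 lower at 6 h, 5 and 5 at 24 h, and 0 (1 at an unadjusted p under 0.05) and 5 at 72 h, with medians of -0.14, -0.01 and -0.05. Pfkfb3, whose product drives phosphofructokinase, rose by 2.71 ± 0.37 at 6 h (limma adjusted p = 2.33e-05), Slc2a1, the basal glucose transporter, by 1.43 ± 0.27 (limma adjusted p = 0.000618) and Pfkp, the platelet phosphofructokinase, by 1.32 ± 0.19 (limma adjusted p = 4.02e-05). Slc2a4, the insulin-responsive transporter of muscle, was -2.01 ± 0.18 at 24 h (limma adjusted p = 2.39e-07), and Pgam2, the muscle mutase, -1.46 ± 0.19 (limma adjusted p = 1.11e-05). Under hybridization spike-in centring 7 were higher and 1 lower at 72 h and 3 lower at 24 h, and under poly-A centring 1 and 1 at 72 h. At 24 h 3 were higher under median or poly-A centring. The lower count was 3 without 6 h replicate 7 or with quantile normalization at 6 h and without 72 h replicate 22 or 23 at 72 h. At 72 h 1 passed as higher on leaving out sham replicate 5, 6 h replicate 10 or 11, or 24 h replicate 16 or 17, and with filters on dim genes, array weights or 2-group fits, and without 24 h replicates 16 and 17 together 3 were higher at 24 h.

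Genes of fatty acid use, many of them targets of the PPAR receptors as Pdk4 is, were called mostly at the later times. Of 17, limma called 1 higher and 0 lower at 6 h (3 lower at an unadjusted p under 0.05), 1 and 14 at 24 h, and 1 and 10 at 72 h, with medians of -0.16, -0.95 and -0.53. The gene called higher at all times was Angptl4, an inhibitor of lipoprotein lipase, at 5.79 ± 0.38 at 6 h (limma adjusted p = 2.96e-09), 2.33 at 24 h and 1.48 at 72 h. Ucp3, a mitochondrial carrier of muscle, was -2.29 ± 0.36 at 24 h (limma adjusted p = 8.46e-05), Acot2, a thioesterase, -1.82 ± 0.15 (limma adjusted p = 1.18e-07), Plin5, of lipid droplets, -1.43 ± 0.31 (limma adjusted p = 0.00189), and Acacb, which makes malonyl-CoA, -1.33 ± 0.23 (limma adjusted p = 0.000183). The lower count was 6, 9 and 2 at the 3 times under hybridization spike-in centring, and 9 at 6 h and 3 at 72 h under poly-A centring. At 6 h it was 1 without sham replicate 3 or with a filter on dim genes and 2 without 6 h replicate 11.

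Of 13 known regulators of the kinase genes, 2 were called higher and 3 lower at 6 h, 1 and 10 at 24 h, and 1 and 7 at 72 h, with medians of -0.28, -0.95 and -0.67. Ppara, the receptor that drives Pdk4 with fatty acids, was -0.32 at 6 h (limma adjusted p = 0.498) and fell by 2.39 ± 0.27 at 24 h (limma adjusted p = 2.83e-06) and by 1.77 at 72 h (limma adjusted p = 7.96e-05). Pparg, its relative, rose by 1.84 ± 0.15 at 6 h (limma adjusted p = 3.84e-08), and Hif1a, the hypoxia-inducible factor, by 1.25 ± 0.17 (limma adjusted p = 2.32e-05). Ppargc1b, a coactivator, fell by 2.09 ± 0.19 at 6 h (limma adjusted p = 1.75e-07). Klf15, a factor of the glucocorticoid and fasting response, was 0.33 at 6 h (limma adjusted p = 0.36) and -1.18 ± 0.22 at 24 h (limma adjusted p = 0.00041). Its 24 h signals were 7.11, 6.40, 6.52 and 6.59, most of them below the background level of 6.76, so the size of that fall is uncertain. Under hybridization spike-in centring the lower counts were 6, 6 and 2, with 2 higher at 72 h, and under poly-A centring 6 at 6 h and 3 at 72 h.

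Genes of the glucocorticoid response rose at 6 h in 10 of 11, with 0 called lower by the limma test (0 also at an unadjusted p under 0.05) and a median change of 1.94. At 24 h 3 were higher and 5 lower, and at 72 h 1 higher and 2 lower, with medians of -0.27 and -0.22. Fkbp5, a co-chaperone of the glucocorticoid receptor, rose by 4.36 ± 0.42 at 6 h (limma adjusted p = 3.38e-07) and was -0.10 at 24 h (limma adjusted p = 0.895). Zbtb16 was 1.65 ± 0.45 at 6 h (limma adjusted p = 0.0117) and -2.94 at 24 h (limma adjusted p = 6.3e-05), higher and then lower than sham as Pdk4 was. Without sham replicate 5, at 10.46 against 12.85 to 13.49 on the other sham arrays, its 6 h change was 0.98 (limma adjusted p = 0.0147). That replicate was the lowest sham array for 7 of the 11 genes. The other largest movers, Lcn2 at 6.51 ± 0.55, Cdkn1a at 4.99 ± 0.44 and Mt2 at 3.92 ± 0.43 at 6 h, also respond to inflammation, DNA damage and metals. Lcn2 is also a neutrophil gene, and the summed log2 level of the neutrophil markers was 6.82 to 7.31 in sham, 10.62 to 13.50 at 6 h, 9.04 to 13.04 at 24 h and 8.45 to 9.99 at 72 h; its part in these changes was not tested. At 6 h 8 were called higher under either spike-in centring, and at 24 h 4 were lower under the hybridization one. Under hybridization spike-in centring 2 were higher and 1 lower at 72 h. The 72 h lower count was 1 under poly-A centring, without sham replicate 3 and without 72 h replicate 21, and 4 under median centring or array weights.

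**Figure D3:**
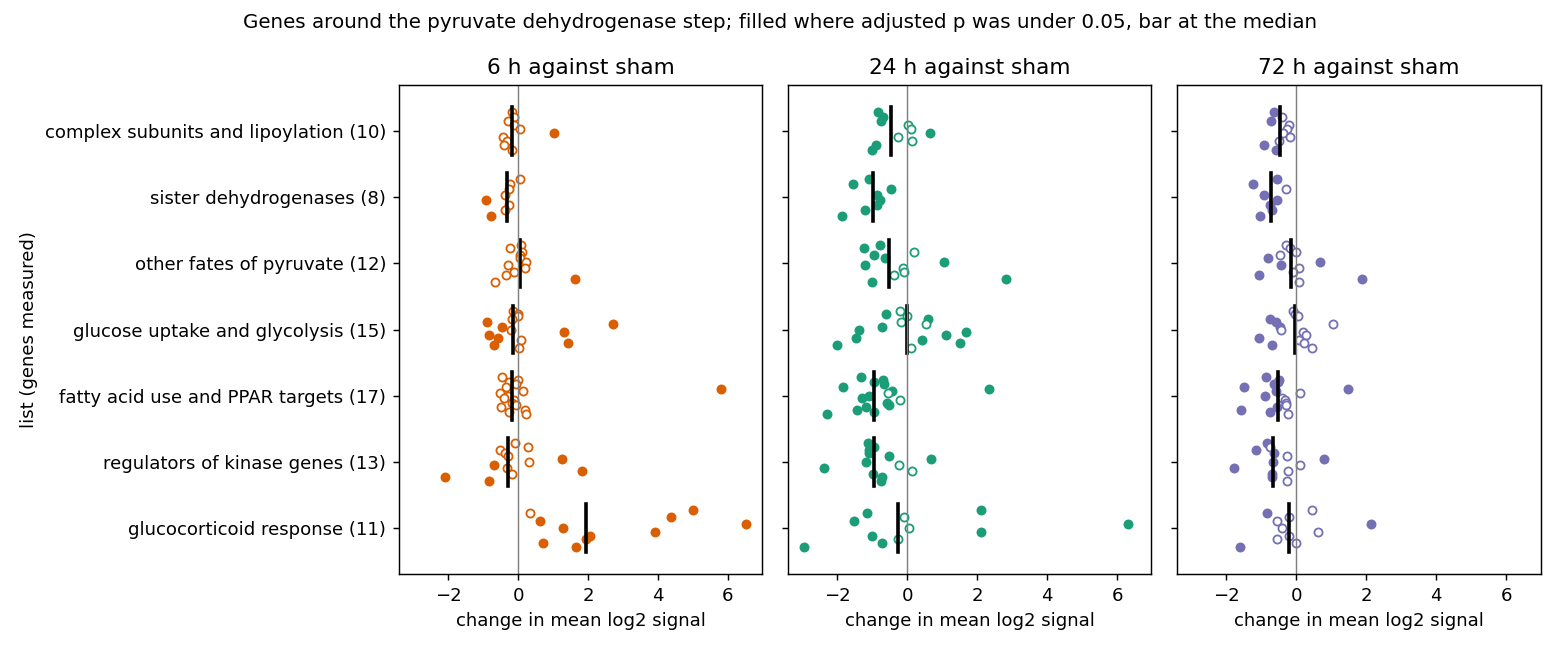
Change of mean log2 signal against sham (x axis) at 6, 24 and 72 h for the genes of 7 lists around the pyruvate dehydrogenase step (rows, with the number of genes measured); a point is a gene, filled where its adjusted p was under 0.05, and the black bar is the list's median. The glucocorticoid response has a median of 1.94 at 6 h, while the lists of fatty acid use, regulators and sister dehydrogenases have medians of -0.95 to -0.98 at 24 h.

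The genes whose signal ran most like that of Pdk4, Pdp2 and Pdk2 were taken as those with the highest Pearson r over the 16 arrays, among 9940 genes with a mean at or above the median probe set. The arrays share their groups, so r mostly describes the pattern of the 4 group means. For Pdk4 they were Per1 (0.969), a clock gene that is also on the glucocorticoid list, Pim3 (0.956), Fam117b (0.953), Smg1 (0.952) and Gabarapl1 (0.947). Per1 changed by 2.05 ± 0.16 at 6 h (limma adjusted p = 3.08e-08), by -1.01 at 24 h (limma adjusted p = 0.000109) and by -0.22 at 72 h (limma adjusted p = 0.378), the order of the Pdk4 groups but for 72 h and sham. The 24 h arrays of Per1, at 6.14, 6.37, 6.01 and 5.96, were all below the background level of 6.76, so the size of that fall is uncertain. For Pdp2 they were Ehhadh (0.934), a peroxisomal enzyme of fatty acid oxidation, Lrrc14b (0.924), Ccnd2 (0.910), Rbbp6 (0.906) and Sgta (0.903). For Pdk2 they were Tcea3 (0.973), Auh (0.973), of leucine breakdown, Calcoco1 (0.967), Coq10a (0.964), of coenzyme Q function, and Rragd (0.963). Lrrc14b, with a mean of 11.31 in sham, 8.64 at 6 h, 9.26 at 24 h and 10.25 at 72 h, stayed above background where Pdp2 did not. Ehhadh had means below background at 6 h (6.60) and 24 h (6.72), and Pim3 in sham (6.66), at 24 h (6.16) and at 72 h (6.26).

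**Figure D4:**
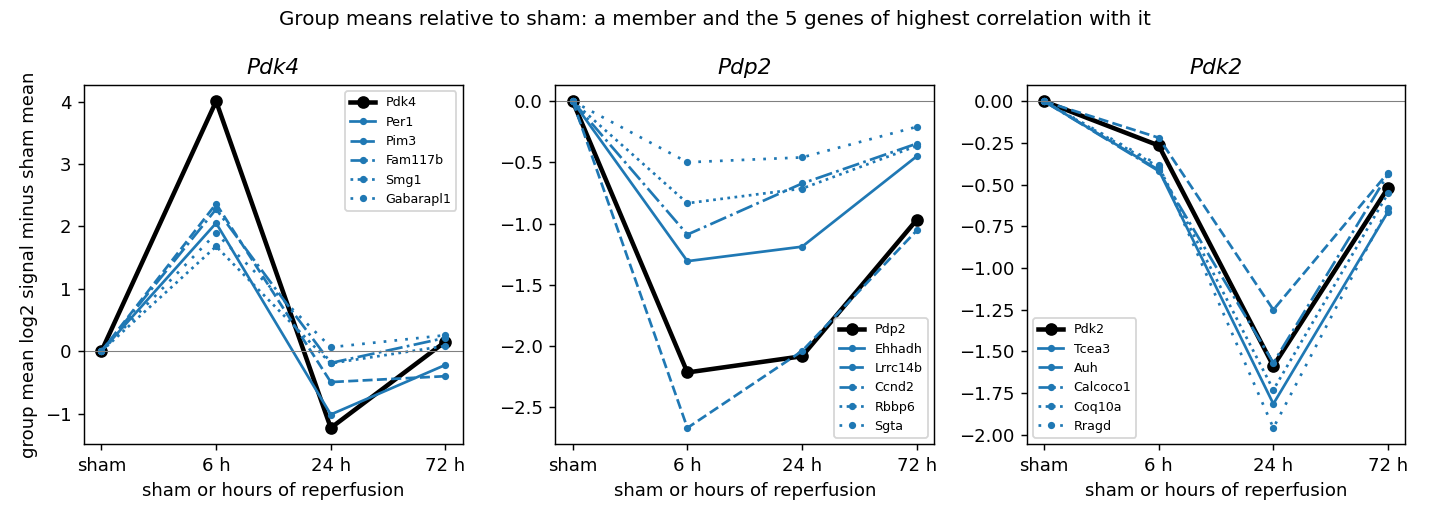
Group mean log2 signal minus the sham mean (y axis, a separate scale in each panel) by group (x axis) for Pdk4, Pdp2 and Pdk2 (black) and the 5 genes of highest Pearson r with each over 16 arrays (blue), each point a mean of 4 hearts. The 5 genes nearest Pdk4 peak at 6 h with it, by less than its 4.01, and those nearest Pdk2 are lowest at 24 h.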

How the data were processed

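Heart RNA was measured on 16 Affymetrix arrays, 4 per group, with groups and replicate numbers taken from the labels. The authors deposited log2 values per probe set, made with Affymetrix Expression Console per the submitters' processing notes (version not given). The sources used here give neither its summarisation method nor the genome build, and the log base was taken as 2 from the values. The array type in the design text differs from that of the probe set names, and the hours in the title differ from those in the sample labels, which were followed. The deposited values were used without further scaling. A deposited scale that reaches 19.82 may stretch folds, which hold on that scale only.

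Of 28846 probe sets, 19572 had 1 gene name in the platform annotation, 9274 had none or several and were left unnamed, and the probe set of highest mean stood for each of 19505 genes (55 had several). A model of 4 group means was fitted with limma 3.58.1 in R 4.3.3 (lmFit and eBayes, 12 residual and 6.943 prior degrees of freedom, median standard error 0.183), with Benjamini-Hochberg adjustment over all genes. The script was tested on simulated data. The labels do not say more than that hearts are separate samples, so p-values measure the spread between these samples.

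The members and lists were chosen with earlier results of these data known, so no list's direction is independent evidence. Members were all named. Of each list, up to 5 called genes with the largest change against sham at any time were named, and for the 3 members of widest range the 5 genes of highest correlation. Further marker lists gave these calls at 6, 24 and 72 h, in order, to be read beside the shares of all genes given above. Atrial markers were higher in 0, 1 and 2 of 6, endothelial higher in 1, 0 and 0 and lower in 2, 2 and 2 of 5, smooth muscle and pericyte higher in 0, 0 and 1 and lower in 1, 2 and 1 of 5, and skeletal muscle higher in 0, 2 and 1 and lower in 0, 2 and 2 of 6. All 5 lymphocyte and all 5 adipocyte markers were below background in every group with 0 called by limma (1 adipocyte marker lower at 72 h and 1 lymphocyte marker lower at 6 h at an unadjusted p under 0.05), and the 1 erythroid marker measured was lower at 72 h. Promoters came from the RefSeq table of GRCm38.p6, which held 9 of the 10 genes. Alternatives were other scalings and centrings, filters on dim genes, array weights, a trended robust prior, 2-group fits and leaving out each array. The removal of 24 h replicates 16 and 17 together was chosen after seeing the data.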

Additional observations from a re-analysis of the deposited data

Results flagged for a closer look

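In each of 36 groups of 4 arrays (9 genes in 4 groups), the gap of the highest or lowest array to its nearest neighbour was set against the group's range, a check that chance trips in about 1 in 20 groups; 2 arrays stood out. Sham replicate 3 had a Pdk4 signal of 14.25 against 13.09 to 13.26 on the other sham arrays, a gap of 0.856 of the range. Over the 11 genes of the glucocorticoid list, that array was the highest sham array for 5 and the lowest for 2, looked at after the values were seen. The other was 72 h replicate 20, whose Pdp2 signal of 6.51 lay below the 7.0 to 7.09 of the other 72 h arrays, a gap of 0.844 of the range.

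Pdk4 changed in opposite directions against the same sham arrays at 6 and 24 h, and the difference between these times was -5.24 (limma adjusted p = 2.35e-10), with every 24 h heart below every 6 h heart.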

How the results depend on the processing

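Against sham, the calls of Pdk4 and Pdp2 at 6 and 24 h, of Pdp1 at 6 h and of Pdk2 at 24 h held under every alternative run; over these the Pdk4 change ran from 3.67 to 4.28 at 6 h. Of 1425 member changes under the settings run, 1367 kept their side of the threshold, 22 of these with a turned sign where neither value was called. A further 19 lost a call and 36 gained one without a turned sign, and 3 turned sign with a call on at least 1 side. Hybridization spike-in centring moved the most counts of members: lower at 24 h 3, at 72 h 0; higher at 72 h 3; 24 against 6 h lower 2; 72 against 24 h higher 5; 72 against 6 h higher 5 and lower 1. Poly-A spike-in centring gave 72 h lower 1, 24 against 6 h lower 2, 72 against 24 h higher 5, and 72 against 6 h lower 1. The 72 against 6 h change turned for Pdk1, to 0.24 and 0.053 under the 2 centrings, and for Pdhb, to 0.64 under the hybridization one (limma adjusted p = 0.0037) from -0.08. A filter at the median signal, which removes the dim Pdk3, gave 0 members higher at 24 h and 0 at 72 h, and 1 at 24 against 6 h. Leaving out 24 h replicates 16 and 17 together gave 1 member higher at 24 against 6 h. With Pdp2 raised to the background level, Pdk4 minus Pdp2 was -0.12 at 24 h. Leaving out each array in turn, members lower numbered 5 to 7 at 24 h and 2 to 4 at 72 h, and members higher from 24 to 72 h 3 to 5. No paired analysis was possible because no 2 groups share a replicate number. Signals near background limit Pdk3 throughout and Pdp2 at 6 and 24 h.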
